A study of Homo sapiens with 8 samples.

Results

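Human chromosome 3 held 3124 of the 48662 regions marked by acetylation of lysine 27 of histone H3 (H3K27ac) in ARID1A knockout or control MDA-MB-231 cells, an established triple-negative breast cancer line. The regions were built from the peaks that the authors called in each genotype: peaks of chromosome 3 from both lists were merged where they overlapped by at least 1 bp. A region with peaks of both lists was called shared, and one with peaks of a single list knockout-only or control-only. The classes were thus chosen by the listed peaks themselves and their overlap, so class counts, and the fold and coverage of the peaks within them, are a description of these lists and not a test.

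The 8 libraries formed 4 groups of 2: ARID1A knockout immunoprecipitates, ARID1A knockout inputs, control immunoprecipitates and control inputs. No treatment or other allele was named. The labels did not say whether the knockout was 1 clone or a pool of cells, how it was made, or whether the paired libraries came from separate cultures. A single peak list was used for each genotype, immunoprecipitate against input, so each value below is 1 value per genotype with no replicate error and no p-value for the genotype. The sample characteristics named an antibody to H3K27ac, whereas the extraction protocol named one to H3K4me3, and the mark is called H3K27ac here after the characteristics. Library depth was not given, and the intervals below are exact binomial (Clopper-Pearson) 95% intervals that cover counting error only. Positions are on hg38.

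H3K27ac is laid down by the acetyltransferases p300 and CBP at active promoters and enhancers, and it distinguishes active enhancers from poised ones. ARID1A belongs to the canonical BAF (SWI/SNF) remodelling complex, binds DNA without strong sequence preference, and the complex moves nucleosomes and keeps many enhancers accessible. It is often mutated in cancers of the ovary, endometrium, stomach and breast. Chromosome 3 carries genes of that machinery, among them PBRM1, a subunit of the related PBAF complex, as well as a short arm that is often lost and a long-arm end that is often gained in carcinomas.

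Promoter sequences are shown first for starts whose acetylation was listed in 1 genotype and for 1 start that was strongly acetylated in both. Each runs from 250 bases before to 50 bases after a transcription start, is given 5′ to 3′ on the strand of the gene, and comes from RefSeq on GRCh38.p14, which matched 934 of the 1066 protein-coding genes of the chromosome. Capitals mark CG dinucleotides, the sites of DNA methylation, which are dense at the promoters of broadly expressed genes. The knockout-only starts are those of NBEAL2, a gene of platelet granule formation (chr3:46987740-46988039, + strand), ZNF660, a zinc finger gene (chr3:44584714-44585013, + strand), and PRICKLE2, a planar cell polarity gene (chr3:64225417-64225716, − strand). Those of NBEAL2 and PRICKLE2 are alternative starts inside the gene.
NBEAL2: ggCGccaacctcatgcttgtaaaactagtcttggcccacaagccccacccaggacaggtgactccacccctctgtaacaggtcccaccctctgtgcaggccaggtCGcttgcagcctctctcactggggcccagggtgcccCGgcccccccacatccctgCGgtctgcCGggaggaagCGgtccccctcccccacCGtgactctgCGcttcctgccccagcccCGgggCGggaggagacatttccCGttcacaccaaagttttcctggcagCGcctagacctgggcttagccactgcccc
ZNF660: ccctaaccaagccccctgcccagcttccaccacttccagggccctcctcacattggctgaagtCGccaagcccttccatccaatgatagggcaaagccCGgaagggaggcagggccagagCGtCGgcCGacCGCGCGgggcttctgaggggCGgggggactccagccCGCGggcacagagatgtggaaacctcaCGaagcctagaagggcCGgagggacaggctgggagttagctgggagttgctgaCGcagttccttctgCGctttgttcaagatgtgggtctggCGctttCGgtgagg
PRICKLE2: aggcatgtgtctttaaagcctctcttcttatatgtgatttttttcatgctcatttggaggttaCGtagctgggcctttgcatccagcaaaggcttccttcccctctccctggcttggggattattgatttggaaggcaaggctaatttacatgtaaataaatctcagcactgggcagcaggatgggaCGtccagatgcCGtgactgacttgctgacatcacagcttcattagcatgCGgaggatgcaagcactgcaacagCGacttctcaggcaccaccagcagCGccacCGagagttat

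The control-only starts are those of CCDC39, which is needed to build motile cilia (chr3:180679440-180679739, − strand), and ACTRT3, an actin-related gene (chr3:169769512-169769811, − strand). The shared start is that of ATXN7, a subunit of the SAGA acetyltransferase complex (chr3:63862894-63863193, + strand).
CCDC39: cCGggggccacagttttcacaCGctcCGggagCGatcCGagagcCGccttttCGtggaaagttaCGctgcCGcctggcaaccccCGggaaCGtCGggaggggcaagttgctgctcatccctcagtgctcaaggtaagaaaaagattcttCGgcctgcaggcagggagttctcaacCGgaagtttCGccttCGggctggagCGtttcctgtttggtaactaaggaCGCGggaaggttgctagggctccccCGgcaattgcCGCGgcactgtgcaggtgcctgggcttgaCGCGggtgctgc
ACTRT3: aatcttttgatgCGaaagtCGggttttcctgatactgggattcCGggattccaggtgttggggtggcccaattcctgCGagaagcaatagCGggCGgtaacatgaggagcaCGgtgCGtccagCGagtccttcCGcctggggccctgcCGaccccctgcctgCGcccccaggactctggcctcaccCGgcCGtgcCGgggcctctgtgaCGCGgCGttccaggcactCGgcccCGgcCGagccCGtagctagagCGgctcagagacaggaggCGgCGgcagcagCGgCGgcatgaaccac
ATXN7: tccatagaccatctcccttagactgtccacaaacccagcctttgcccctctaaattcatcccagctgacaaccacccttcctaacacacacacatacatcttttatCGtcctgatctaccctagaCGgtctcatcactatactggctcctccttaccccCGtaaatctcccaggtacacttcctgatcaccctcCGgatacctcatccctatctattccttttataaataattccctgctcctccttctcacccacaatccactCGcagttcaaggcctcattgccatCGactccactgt

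The NBEAL2 window held 12 CG dinucleotides, that of ZNF660 17 and that of PRICKLE2 7. The CCDC39 window held 24 and that of ACTRT3 27, whereas the ATXN7 window, under a shared region with a fold enrichment of 33.3 in the knockout list, held 6. Starts of chromosome 3 in the table were classed by the region that their window overlapped. A start could thus itself lie outside that region, as at CCDC39. The median number of CG dinucleotides was 12 at the 15 starts whose window overlapped a knockout-only region and 24 at the 19 for a control-only region. It was 27 at the 812 starts for a shared region and 5 at the 517 for none. The range was 1 to 31 at knockout-only starts and 1 to 47 at control-only starts, so these groups overlapped widely, and some genes contributed several starts. The ZNF660 start was also entered as that of ZNF660-ZNF197, so the same window was counted again among the knockout-only starts.

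3 short motifs were counted in the same windows on both strands, without removing overlaps between them. TGANTCA, the recognition motif of AP-1, was in 0 of the 15 knockout-only and 0 of the 19 control-only windows, beside 5.05% of shared windows and 7.71% of the 35116 RefSeq promoters in the table. GGAATG, the core bound by TEAD factors, was in 0 knockout-only windows, 3 control-only windows, 12.8% of shared windows and 14% of all promoters. The E-box CANNTG was in 7 knockout-only windows, 14 control-only windows, 59.0% of shared windows and 68.7% of all promoters. These are counts of letters in a window and say nothing about whether a factor was bound.

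Most acetylated regions of chromosome 3 were common to both genotypes, and the knockout list had more regions of its own. The knockout list placed 2711 peaks on the chromosome and the control list 2500, covering 5.89 Mb in knockout cells and 5.52 Mb in control cells. Of the 3124 regions, 676 were knockout-only (21.6%, interval 20.2 to 23.1), 468 were control-only (15%, 13.7 to 16.3) and 1980 were shared (63.4%). Over the whole lists, 19.6% of regions were knockout-only and 14.7% control-only. By its knockout-only share the chromosome stood 8th highest among 23, and by its control-only share 9th, so neither share set it apart. At a −log10 q of at least 5 in both lists there were 462 knockout-only and 194 control-only regions, the same order. With only the 25000 peaks of lowest q-value kept in each list, a setting chosen after seeing the data, the order turned, with 231 knockout-only and 279 control-only regions. The cause was not tested.

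Genotype-only regions were narrow, weak and mostly away from gene ends. Their median width was 761 bp for knockout-only and 733.5 bp for control-only regions, against 2194 bp for shared regions. The median of the best fold enrichment, as the authors listed it relative to the input, was 3.05 for knockout-only regions, 2.98 for control-only regions and 6.85 for shared regions. Within 1 kb of either end of a protein-coding gene lay 3.11% of knockout-only, 6.84% of control-only and 32.1% of shared regions. Between genes lay 41.4% of knockout-only, 33.5% of control-only and 30.3% of shared regions. The other chromosomes had the same pattern, so it was not particular to chromosome 3. There the median widths were 765 bp for knockout-only, 670 bp for control-only and 2133 bp for shared regions, and the median best folds 3.15, 2.99 and 7.13. In the same order, 4.88%, 7.36% and 34.6% lay within 1 kb of a gene end, and 48.3%, 35.5% and 30.7% between genes.

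A genotype-only region was called strong where the fold of its best peak reached the upper 50% of that list and the other list had nothing within 1 kb. Chromosome 3 had 44 strong knockout-only regions (1.41% of its regions, 1.03 to 1.89) and 25 strong control-only regions (0.800%, 0.519 to 1.18). Over all chromosomes 1.48% of regions were strong knockout-only and 0.616% strong control-only. At the edge of the rule, the shared region with the smallest overlap, near RASA2, was held together by 41 bp, and the knockout-only region closest to a control peak, in SLMAP, lay 21 bp from it. Only 5 shared regions overlapped by under 100 bp, and 6 genotype-only regions lay within 100 bp of a peak of the other list.

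In windows of 5 Mb, knockout-only regions outnumbered control-only regions in 28 of 40 windows, and control-only regions outnumbered knockout-only regions in 12. Among the 36 windows with at least 20 regions, the knockout-only share ran from 6.19% to 38.7% and the control-only share from 5.13% to 29.5%. The widest gap toward knockout-only regions lay at 20 to 25 Mb, with 30 knockout-only and 4 control-only regions. That window holds THRB, the thyroid hormone receptor beta gene, with 10 knockout-only and 0 control-only regions, and ZNF385D, a zinc finger gene, with 8 knockout-only and 0 control-only regions. At 60 to 65 Mb there were 24 knockout-only and 5 control-only regions, at 150 to 155 Mb 29 knockout-only and 7 control-only, and at 175 to 180 Mb 23 knockout-only and 8 control-only.

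Control-only regions outnumbered knockout-only regions in gene-rich and in gene-poor windows. In the windows poorest in genes the gap was small or rested on few regions. At 45 to 50 Mb, the window with most regions (196) and with 100 genes, there were 20 knockout-only and 41 control-only regions. At 50 to 55 Mb, with 86 genes, there were 11 knockout-only and 19 control-only regions. At 95 to 100 Mb, with 23 genes, there were 14 knockout-only and 21 control-only regions. The gap was small at 65 to 70 Mb, with 14 genes and 10 knockout-only and 12 control-only regions. It was also small at 165 to 170 Mb, with 17 genes and 7 knockout-only and 9 control-only regions. The window at 40 to 45 Mb, with 48 genes, went the other way, with 23 knockout-only and 9 control-only regions. At 180 to 185 Mb, with 40 genes, there were 6 knockout-only and 23 control-only regions. At 195 to 200 Mb, with 38 genes, there were 7 knockout-only and 19 control-only regions. Windows between 75 and 95 Mb held only 7 to 13 regions each, and the window at 90 to 95 Mb had 0 knockout-only and 5 control-only regions.

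**Figure D1:**
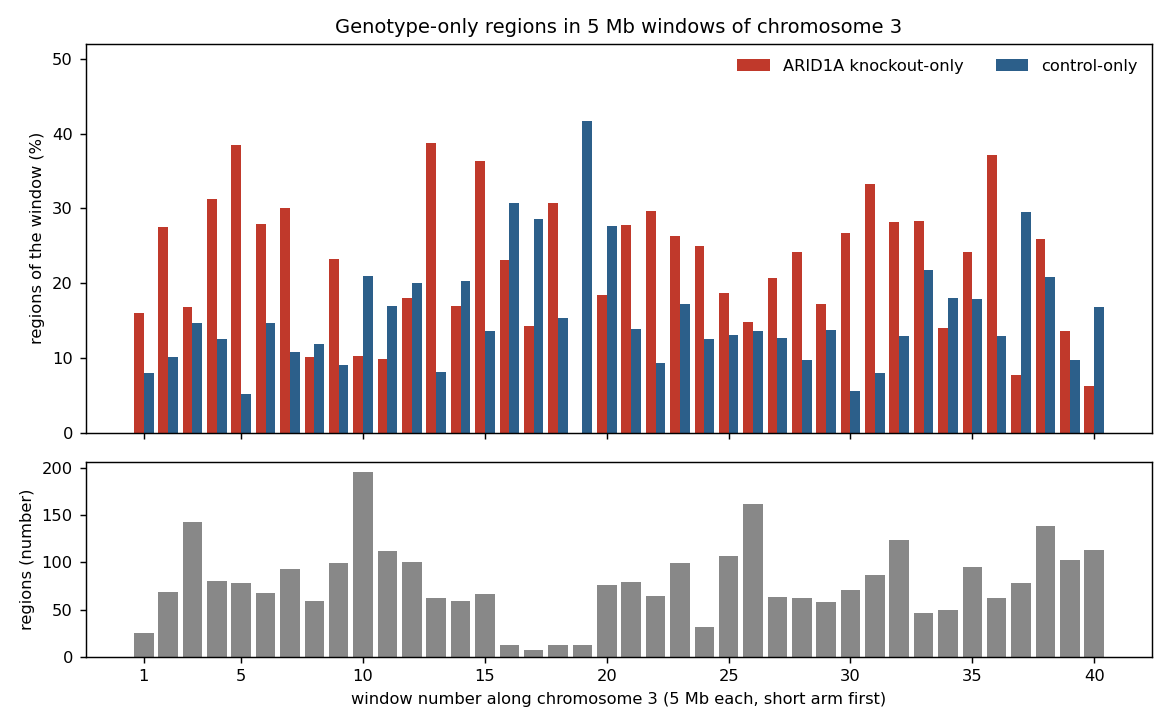
Share of regions that were knockout-only (red, left bar) and control-only (blue, right bar) in each 5 Mb window of chromosome 3, in percent, above the number of regions per window. Window 5 has 38.5% knockout-only and 5.13% control-only regions, window 37 has 7.69% knockout-only and 29.5% control-only regions, and windows 16 to 19 rest on 7 to 13 regions each.

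Across the first 10 Mb of the short arm, acetylation was carried by 94 regions, of which 23 were knockout-only (24.5%, 16.2 to 34.4), 9 control-only (9.57%, 4.47 to 17.4) and 62 shared. The remaining 3030 regions were knockout-only in 653 cases (21.6%, 20.1 to 23.1), control-only in 459 (15.1%, 13.9 to 16.5) and shared in 1918. The intervals of the first 10 Mb include the shares of the rest for both classes, so no difference in class was detectable at this number of regions. With the boundary at 5 Mb the first stretch held 25 regions and its knockout-only share was 16%. The boundary at 10 Mb fell inside EMC3, a gene of membrane protein insertion: the last region before it (9989572 to 9990476) was knockout-only and the first beyond it (10008816 to 10009163) was shared.

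Knockout-only regions of the first 10 Mb were scattered and formed no run of 3 or more. The highest fold was 8.19, in the body of GRM7, a metabotropic glutamate receptor gene (7504384 to 7506614, pileup 38.8), and no control peak lay within 470 kb. No peak lay at an end of GRM7 in either list. The next were in SUMF1, which encodes the sulfatase-activating enzyme (fold 6.39, pileup 42.8), 20.5 kb from CAV3, the muscle caveolin gene (6.0), and 21.6 kb from BHLHE40 (5.08). LMCD1, a LIM domain gene, carried 2 knockout-only regions with folds of 2.64 and 4.09. CIDEC, a lipid droplet gene, carried 1 (fold 3.77), and another lay outside the gene (4.54). OXTR, the oxytocin receptor gene, carried 1 (fold 2.95) under 2 of its RefSeq starts, beside a shared region at its other end.

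Of the 9 control-only regions there, the one with the highest fold lay 370 kb from GRM7 (6490172 to 6491367, fold 5.71, pileup 16.5). The others lay in CPNE9, a copine gene (folds 4.28 and 3.15), SRGAP3, a regulator of Rac and actin (2.66 and 3.03), ITPR1, an inositol trisphosphate receptor gene (2.85 and 2.39), LHFPL4 (2.96) and the stretch common to OGG1 and TADA3 (3.09). ITPR1 thus carried regions of all 3 classes, with 2 knockout-only regions at folds of 2.97 and 2.89.

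Of the 42 protein-coding genes of the first 10 Mb, 32 were marked at an end in both lists, 10 in neither and 0 in 1 list alone. Either end sufficed for this count, so it does not show that both lists marked the same end. OXTR had a knockout-only region at 1 end, and CPNE9 and LHFPL4 a control-only region. All of them counted as marked in both through a shared region at the other end. Genes without an end peak included CHL1, CNTN6 and CNTN4, which encode neural adhesion molecules, IL5RA, an eosinophil cytokine receptor gene, and GRM7. The shared region of highest fold covered BHLHE40, a repressor of the circadian and hypoxia programmes (4976056 to 4989516), with a pileup of 172 in the knockout list and 105 in the control list. The region over ARPC4, an Arp2/3 subunit gene, and TADA3, an adaptor of the SAGA and ATAC acetyltransferases, had 224 in the knockout list and 125 in the control list. BRPF1, the scaffold of the MOZ and MORF acetyltransferases, had 146 in the knockout list and 116 in the control list. Pileup was higher in the knockout list at 50 of the 62 shared regions of this stretch (80.6%) and at 1481 of the 1918 beyond it (77.2%). On the other chromosomes it was higher at 25983 of 30001 shared regions (86.6%), a larger share than in either part of chromosome 3.

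Pileup is fragment coverage and rises with library depth, so it was set beside the approximate background, which is pileup divided by fold enrichment and stands for the coverage that the caller took from the input of the same genotype. At the shared regions of the first 10 Mb the median pileup was 52.6 in the knockout list and 45.2 in the control list, with a median ratio within regions of 1.30. The median background there was 7.38 in the knockout list and 6.72 in the control list, with a ratio of 1.09 (quartiles 0.953 and 1.22). In the rest of the chromosome the median pileup was 40.6 in the knockout list and 30.4 in the control list (ratio 1.35), and the median background 5.75 in the knockout list and 4.91 in the control list (ratio 1.19, quartiles 0.985 and 1.42). Background was thus higher at the short-arm end in both genotypes, and the knockout over control ratio was lower there than beyond it.

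Chromosome 3 had the lowest background ratio of the 23 chromosomes, 1.18 against 1.37 over all shared regions of the other chromosomes, and the 3rd lowest pileup ratio, 1.35 against 1.56. Low ratios covered long stretches of the chromosome and not the first 10 Mb alone. From 0 to 30 Mb the background was 7.31 in the knockout list and 6.75 in the control list, a ratio of 1.10. From 30 to 55 Mb it was 7.16 in the knockout list and 5.28 in the control list, a ratio of 1.35: the knockout background stayed near its earlier level and the control background stepped down.

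From 55 to 110 Mb the background was 5.33 in the knockout list and 5.25 in the control list, a ratio of 1.02, since here the knockout background stepped down. From 110 to 160 Mb it was 5.36 in the knockout list and 3.92 in the control list (1.34). From 165 to 190 Mb the control list was the higher, with 5.06 in the knockout list and 5.54 in the control list (0.922), and at 195 to 200 Mb the ratio was again 1.35. These spans were chosen after seeing the windows, whose ratios ran from 0.901 to 1.47. Input coverage carries the amount of DNA a stretch contributes as well as its mappability, and copy number was not measured here, so its part in these steps was not tested.

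**Figure D2:**
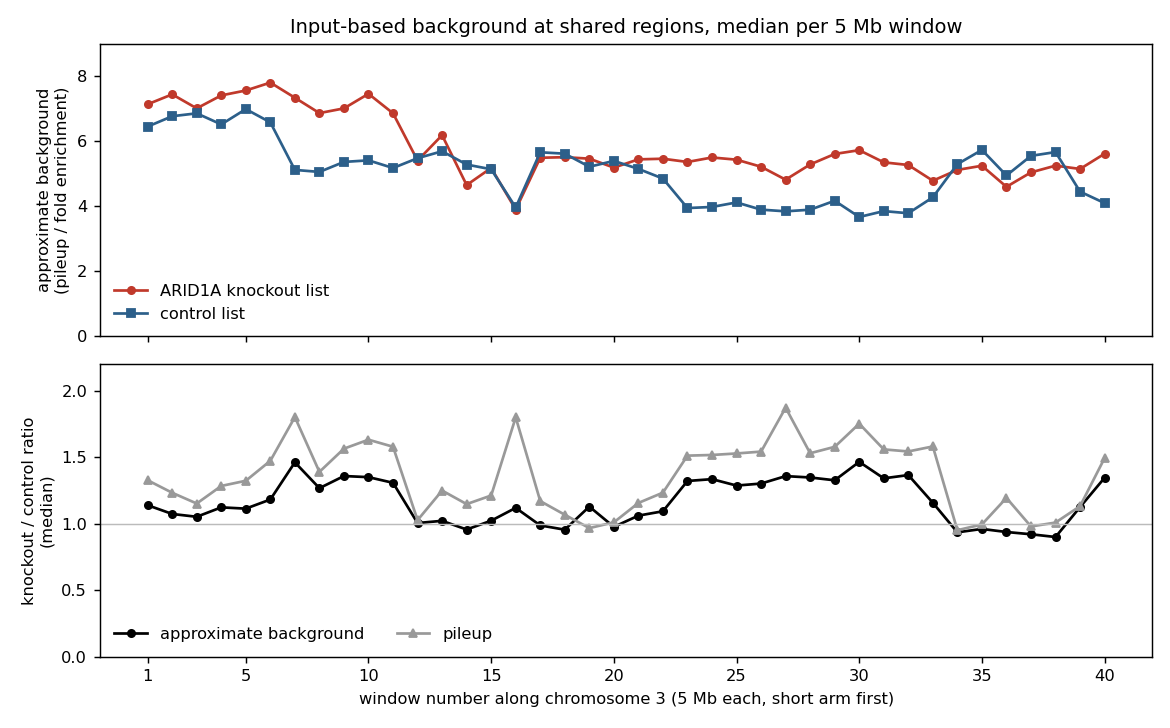
Median approximate background at shared regions per 5 Mb window in the knockout list (red circles) and the control list (blue squares), above the median knockout over control ratio of background (black) and of pileup (grey), all on linear axes. The ratio lies near 1.35 in windows 7 to 11 and 23 to 32, near 1.02 in windows 12 to 22 and below 1 in windows 34 to 38.

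The class shares did not follow these steps in a simple way. In the 16 windows with a background ratio of at least 1.2 the knockout-only share was 19.1% (17.2 to 21.2) and the control-only share 13.7% (12 to 15.6), and in the 24 windows below it the knockout-only share was 24.1% (22 to 26.3) and the control-only share 16.2% (14.4 to 18.1). The split at 1.2 was chosen after seeing the windows. Pooled, both shares were higher below the split, and only the control-only intervals overlapped, which is not a test. Single stretches did not all follow. At or above the split the knockout-only share was 15.7% at 30 to 55 Mb and 23.01% at 110 to 160 Mb. It was 6.19% at 195 to 200 Mb. Below the split it was 26.1% at 0 to 30 Mb, 25.2% at 55 to 110 Mb and 21.3% at 160 to 195 Mb. The control-only shares, in the same order, were 15.4%, 12.3% and 16.8% at or above the split. Below it they were 11.7%, 17.6% and 18.5%. Over the 36 windows with at least 20 regions, knockout-only minus control-only share had a Pearson correlation of 0.12 and a Spearman correlation of 0.17 with the background ratio. The windows share the same lists and inputs, so these are descriptions, and whether background moved peaks across the calling threshold was not tested.

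Some genotype-only regions lay side by side. A run was counted where at least 3 consecutive regions were of 1 genotype-only class with neighbours at most 500 kb apart. There were 40 knockout-only runs holding 165 regions (24.4% of the class) and 25 control-only runs holding 92 regions (19.7%). Runs of 5 or more numbered 10 for knockout-only and 3 for control-only regions. At a −log10 q of at least 5 there were 26 knockout-only and 4 control-only runs. Among the 25000 peaks of lowest q-value in each list there were 9 knockout-only and 13 control-only runs, the opposite order.

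One of the longest knockout-only runs lay inside FOXP1, a forkhead repressor gene that is altered in several cancers. It held 8 regions within 112 kb (71140583 to 71252493), with folds from 2.55 to 5.99. The highest 2 were its outermost members, with folds of 5.98 and 5.99 and pileups of 33.4 and 22.6, and the nearest control peaks to the 8 regions lay 9.44 to 89.0 kb away. FOXP1 as a whole held 17 knockout-only, 3 control-only and 12 shared regions, and its ends had a peak in both lists (pileup 136 in the knockout list and 108 in the control list). The control-only regions formed a run of their own at 70982532 to 71048760, with folds of 2.297 to 3.94. The background ratio of this window was 1.02.

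The run with the highest folds among those of 5 or more lay between CACNA2D3, a calcium channel subunit gene, and WNT5A, a non-canonical Wnt ligand gene (55135591 to 55363030). Its 6 knockout-only regions had folds of 4.01, 14.7, 9.47, 2.54, 5.41 and 3.37 and pileups of 18.7, 72.5, 65.4, 11.3, 24.6 and 14.5. The pair with the highest folds was 6033 and 7990 bp wide. The nearest control peak lay 763 kb from the last of them and 989 kb from the first, so this stretch had no listed acetylation in control cells over a long distance. The background ratio of its window was 1.01.

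Another 8 knockout-only regions lay in the gene-poor stretch beyond CBLB, a ubiquitin ligase gene that restrains receptor signalling (106113802 to 106691579). Their folds ran from 2.21 to 11.3, and the strongest (106533225 to 106535033, pileup 49.5) lay 664 kb from CBLB and 193 kb from the nearest control peak. A pair of runs of 7 regions each lay between TBL1XR1, a gene of the NCoR and SMRT corepressor complexes, and KCNMB2, a potassium channel subunit gene. They covered 177524119 to 177814069, with folds up to 4.44, and 177820511 to 178171410, with folds up to 7.45. A control peak 2.56 and 2.98 kb away lay between them. The background ratio was 1.09 in the window of the CBLB run and 0.939 in that of the pair.

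Shorter or weaker knockout-only runs lay at 6 regions in and beside SUCNR1, the succinate receptor gene (folds 2.32 to 5.1), 5 beside SYN2, a synapsin gene (2.53 to 3.78), and 5 at VIPR1, the receptor gene for vasoactive intestinal peptide (2.32 to 5.27). LPP, a focal adhesion gene of the zyxin family, held 2 runs of 5, with 15 knockout-only and 6 control-only regions over its 738 kb. THRB held a run of 4 and a run of 3, all with folds of 3.01 or less. MYLK, the myosin light chain kinase gene, held 2 runs of 3 and 8 knockout-only regions in all, against 0 control-only. IQCJ-SCHIP1 had 11 knockout-only and 0 control-only regions. MBNL1, a splicing regulator gene, and RBMS3, an RNA-binding protein gene, each had 6 knockout-only and 0 control-only regions. Long genes have more room for regions of either class.

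The longest control-only run, of 10 regions, stretched over 2068 kb of gene-poor sequence between NSUN3, a mitochondrial tRNA methyltransferase gene, and EPHA6, an ephrin receptor gene (94159024 to 96226843). Its folds ran from 2.52 to 6.38 and its pileups from 9.10 to 31.1. The nearest knockout peak lay 94.5 kb from its first region, and 1081 kb from the farthest of the 10. The background ratio was 0.977 in the window at 95 to 100 Mb, which held most of its regions, and 1.13 in that at 90 to 95 Mb. These ratios come from shared regions of the windows, none of which lay within the run.

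Weaker control-only runs lay inside genes: 5 regions in COL8A1, a collagen gene (folds 2.31 to 2.63), and 4 each in CDCP1, a transmembrane substrate of Src kinases (2.41 to 2.73), and SETD2, a gene that methylates H3K36 (2.68 to 3.56). The CDCP1 run adjoined a wide shared region, and another lay in COL8A1. The shared region at COL8A1, of 29971 bp, was 6 peaks in the knockout list and 1 in the control list, and the one at CDCP1, of 27.6 kb, was 3 peaks in the knockout list and 1 in the control list. A run of 4 lay 125 kb or more from SOX2, a stem cell factor gene (181839541 to 182294944, folds 2.78 to 4.50), and runs of 4 lay beside OXSM and FRG2C. FRG2C has near-identical copies elsewhere in the genome, and its reads may be split among them. A run of 3 between MUC4 and TNK2 had the highest folds of the control-only runs (5.86 to 8.5), 2 of its regions covering LOC124905352. MUC4, the nearer of the pair, had an end peak in the control list alone (fold 8.11), in a shared region.

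**Figure D3:**
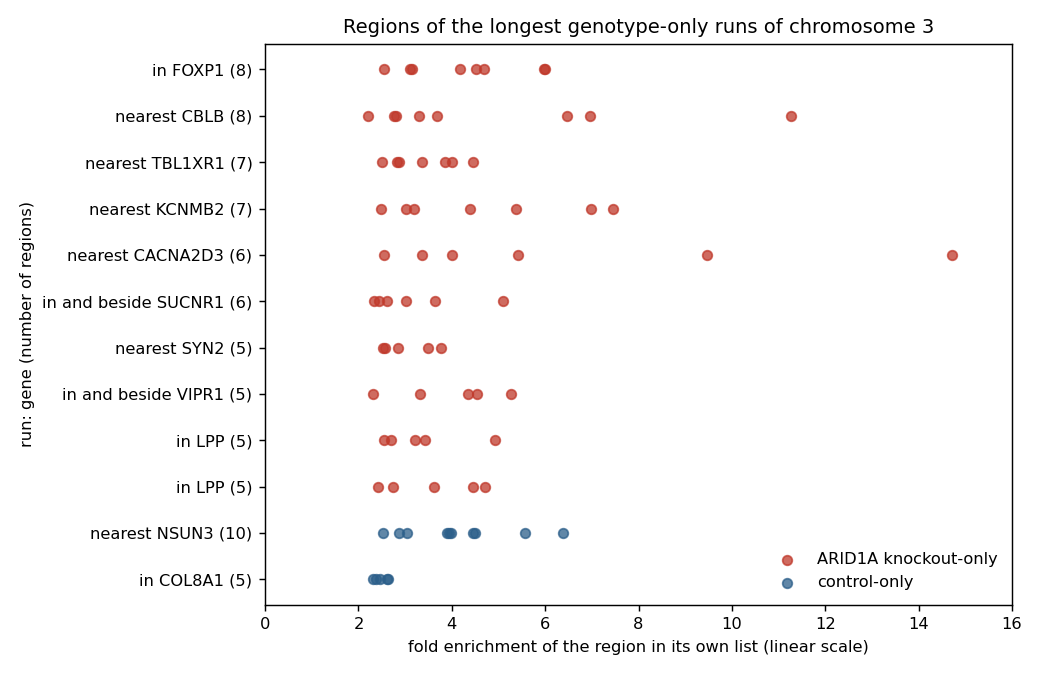
Fold enrichment of each region, in its own list and on a linear scale, for 10 knockout-only runs (red, above) and 2 control-only runs (blue) of 5 or more regions on chromosome 3, with the gene that holds or lies nearest to the run and its number of regions. Folds reach 14.7 near CACNA2D3 and 11.3 near CBLB, while the control-only run near NSUN3 reaches 6.38 and the run in COL8A1 stays at 2.63 or below.

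Among single regions, the highest knockout-only folds were 19.0 (104435166 to 104447242, 920 kb from ALCAM, a cell adhesion gene), 14.7 near CACNA2D3 and 13.0 at 180 kb from TTC14. The next was 12.1 at the NBEAL2 start shown above (pileup 63.8, nearest control peak 6.54 kb away), a start inside the gene. Others lay beyond CBLB (11.3), 312 kb from PYDC2 (10.3), in MYLK (10.3), 97.6 kb from VGLL3, a TEAD cofactor gene (10.2), beside CPN2 (10.1) and beside DAG1, the dystroglycan gene (9.83). The highest knockout-only fold within 1 kb of a gene end was 7.26, at ZNF660, with no control peak within 28.6 kb. The fold at the start inside PRICKLE2 was 5.2.

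The highest control-only folds were 9.85 in PLXNA1, a semaphorin receptor gene (127010254 to 127012822, pileup 31.0), 8.5 and 7.0 at both ends of LOC124905352, and 8.49 near FRG2C. KCNMB2 (7.22), MASP1, a complement protease gene (6.90), NSUN3 (6.38), XXYLT1 (6.36) and GABRR3, a GABA receptor gene (6.27), were nearest to or held the others. The CCDC39 start shown above had a fold of 7.11 and a pileup of 33.5, with no knockout peak within 76.4 kb, and the ACTRT3 start 5.51 with a knockout peak 1.39 kb away. As ranks within lists of unequal length, these folds are not compared between the genotypes.

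At the level of genes, acetylation in 1 list alone was rare. Of the 1066 protein-coding genes of chromosome 3, 693 (65%) had a peak within 1 kb of an end in both lists, 16 (1.5%) in the knockout list alone, 23 (2.16%) in the control list alone and 334 in neither. Over all chromosomes the shares were 1.72% for the knockout list alone and 1.84% for the control list alone. Since either end sufficed, a gene counted in both lists can still have a genotype-only region at 1 end. Not all of these genes lay under genotype-only acetylation: 11 of the 16 and 18 of the 23 did, and at the others the region was shared but the peak of the other list stopped short of the window.

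The counts for the gene lists that follow cover peaks within 1 kb of a gene end only, and a gene counted as without a peak can hold regions in its body. Strand was not used, so the end marked can be the start of the gene or its far end. Pileup and fold of a gene are each the highest at either end in that list. They need not come from the same peak. Of 17 chromatin regulator genes, 16 were marked at an end in both lists, among them SETD2 (pileup 194 in the knockout list and 96.6 in the control list), PBRM1 (113 in the knockout list and 55.5 in the control list) and ATXN7 (163 in the knockout list and 112 in the control list). The exception, TBL1XR1, was listed for the knockout alone (pileup 131), but its region was shared and a control peak lay 2.17 kb from the gene end. Fold enrichment kept the order of pileup at SETD2, PBRM1 and ATXN7, but not at HDAC11, SATB1 and SMARCC1. SMARCC1 had a pileup of 128 in the knockout list and 77.3 in the control list. Its folds were 15.7 in the knockout list and 16.3 in the control list. Of 22 tumour suppressor genes and oncogenes, 21 had peaks at an end in both lists, such as CTNNB1, the beta-catenin gene (162 in the knockout list and 102 in the control list), and PIK3CA, a PI3-kinase catalytic subunit gene (98.0 in the knockout list and 91.3 in the control list). The fold enrichment of PIK3CA was 19.5 in the knockout list and 12.1 in the control list. RASSF1 was listed for the control alone (pileup 37.6), again within a shared region. That peak (50327471 to 50329129) lay outside the gene, below its lower-coordinate end at 50329788.

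Of 23 transcription factor genes, 16 had end peaks in both lists, 6 in neither and SOX2 in the control list alone (fold 2.89, pileup 15.9, region 287 bp wide). TP63, an epithelial p53 family gene without an end peak, held 3 knockout-only, 2 control-only and 3 shared regions in its body. PPARG, a nuclear receptor gene, had a pileup of 157 in the knockout list and 84.4 in the control list, and BCL6, a germinal centre repressor gene, 60.9 in the knockout list and 75.3 in the control list. By fold enrichment PPARG had 25.8 in the knockout list and 14.2 in the control list. The order at BCL6 turned, with 11.5 in the knockout list and 10.7 in the control list. Of 24 adhesion, matrix and guidance genes, 18 had end peaks in both lists and 6 in neither. Of 15 interferon and inflammation genes, 13 had end peaks in both and 2, TLR9 and CD80, in neither. Of 24 replication and housekeeping genes, 23 had end peaks in both.

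Most genes that mark other cell types carried no peak at their ends. Of 27 genes of neurons, liver and blood cells, 20 had no end peak in either list, including GRM7, whose body held the knockout-only region described above, and the liver genes AHSG, HRG, KNG1 and FETUB. 3 had an end peak in both lists, and 3 were listed for the knockout alone. These were LSAMP, a neural adhesion gene (fold 9.52, in a shared region at its lower-coordinate end), and the chemokine receptor genes CCR1 (2.51) and CCR2 (2.46). The CCR1 and CCR2 regions were 226 and 239 bp wide. The platelet gene GP9 was listed for the control alone (fold 4.27). In a check of the line over all chromosomes, 6 of 6 mesenchymal and basal markers (VIM, CD44, CAV1, AXL, FOSL1 and EGFR) had end peaks in both lists. Of 6 luminal markers, GATA3, FOXA1, KRT8 and ERBB3 had end peaks in both, ESR1 had a weak one in the knockout list alone (fold 2.68) and CDH1 had none.

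**Figure D4:**
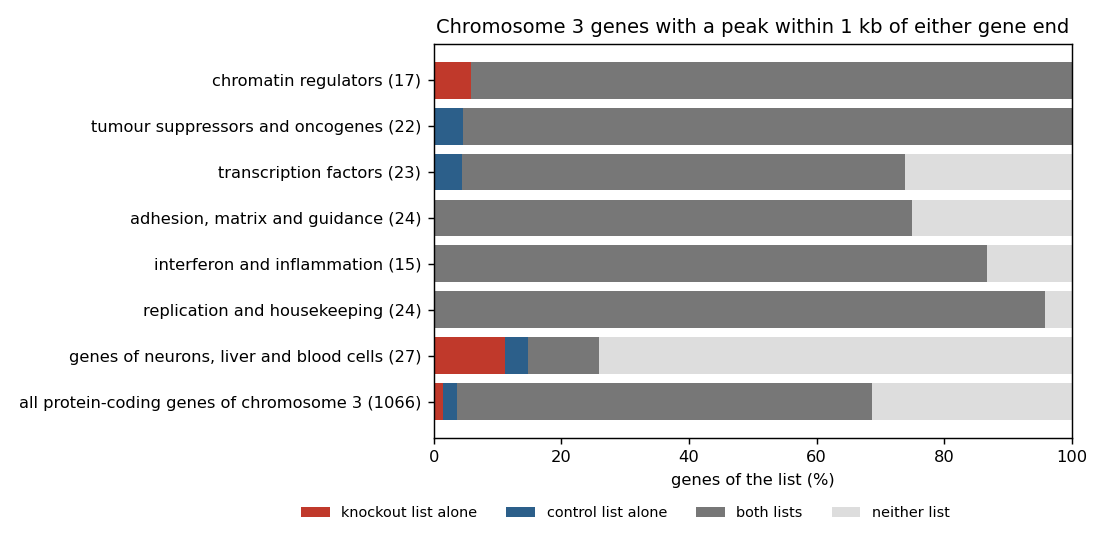
Percent of the genes of each list, and of all 1066 protein-coding genes of chromosome 3, with a peak within 1 kb of either gene end in the knockout list alone (red), the control list alone (blue), both lists (dark grey) or neither (light grey); the number of genes stands in parentheses. Both lists share 94.1% of the chromatin regulators, 95.8% of the replication and housekeeping genes and 11.1% of the genes of neurons, liver and blood cells.

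The widest shared regions lay at PHLDB2, a cortical microtubule anchoring gene (47.1 kb), FNDC3B (31.1 kb), COL8A1, CDCP1, the pair EIF4G1 and FAM131A (23.9 kb), and IRAK2, an interleukin 1 receptor kinase gene (23.4 kb). At PHLDB2 the knockout list had 5 peaks covering 32.2 kb and the control list 1 peak covering all 47.1 kb, whereas at FNDC3B the knockout list had 1 peak and the control list 3. Width also depends on where the caller joined or split a stretch. The highest shared folds in the knockout list were at ABTB1 and PODXL2 (36.2), ATXN7 and THOC7 (33.3), STT3B (29.5), SKIL, a TGF-beta signalling repressor gene (29.4), and CCNL1, a cyclin of splicing (29.0).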

How the data were processed

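Each genotype had 1 deposited peak list, whose name gave the immunoprecipitate and the input behind it. The submitters' processing notes name Bowtie2 2.3.5.1, MACS2 2.2.6 and hg38. Calling options, library depth and any pooling: not given in the sources used here. The columns used were deposited by the authors as peak width, pileup coverage (a signal), fold enrichment over input (a ratio) and −log10 q-value, per the file headers. No value was renormalised.

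Peaks of chromosomes 1 to 22 and X (42552 in the knockout list, 39797 in the control list) were merged with Python 3.11.15, numpy 2.4.6 and pandas 2.3.3, and the overlaps equalled those of bedtools 2.31.1. In shared regions pileup and background were averaged over the peaks of a list, weighted by width. Windows take regions by midpoint. Intervals came from scipy 1.17.1 and figures from matplotlib 3.10.9. The merging was tested on simulated peaks. Genes were the 19970 protein-coding genes of RefSeq on GRCh38.p14, given without strand.

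Named genes were those of the 10 longest runs and the 10 highest folds of each class, the genotype-only regions of the first 10 Mb, and members of 7 gene lists with a peak in 1 list. Genes with many genotype-only regions and those of shared regions were added after their values were seen. 1 control-only run of 5 or more regions is counted but not reported here. The members and lists were chosen with earlier results of these data known.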

Additional observations from a re-analysis of the deposited data

How the results depend on the processing

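With 1 list per genotype no replicate could be left out, and depth was not known. No paired analysis was possible because each genotype had a single list and no test was made. Of 65 recomputed values, 51 moved by less than their counting interval or 1.5 times. At a −log10 q of at least 5, which left 1941 knockout and 1669 control peaks, there were 194 control-only regions on the chromosome, the control-only share of regions beyond 10 Mb was 9.24%, and there were 26 knockout-only and 4 control-only runs. With the 25000 peaks of lowest q-value in each list there were 231 knockout-only, 279 control-only and 1254 shared regions, 12.9% of all regions beyond 10 Mb were knockout-only, and 9 knockout-only and 13 control-only runs were left. This setting was chosen after seeing the data, and it took a −log10 q down to 9.89 in the knockout list and 5.99 in the control list. Runs of at least 4 regions numbered 23 for knockout-only and 8 for control-only. With the first stretch ending at 5 Mb its knockout-only share was 16%. With background taken as (pileup + 1) / fold − 1, the ratio beyond 10 Mb was 1.22. Merging across gaps of up to 1000 bp, an overlap of at least 25%, peaks of at least 500 bp, gaps of at most 200 kb in runs and regions with 1 peak of each list gave no such move. The cause of these moves was not tested.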
